A study of Mus musculus with 42 samples.

Results

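The CCN genes *Ccn1* to *Ccn6*, which encode a family of secreted matricellular proteins, were followed in the left and right heart field of mouse embryos with normal or abnormal laterality. They are 6 of the 56953 genes of the count table, found by matching Ensembl identifiers to the GENCODE symbols of GRCm39. Libraries came from 21 embryos at stage E8.5i, and each embryo gave a left and a right library, 42 in all. The tissue was the microdissected heart field behind the heart tube, cut along the midline. There were 5 wild types of genotype Ccdc40+/+ (4 males and 1 female), 11 mutants of genotype Ccdc40lnks/lnks with rightward heart looping (6 males and 5 females) and 5 mutants of the same genotype with inverted looping (3 males and 2 females). The lnks allele is an ENU-induced nonsense mutation of *Ccdc40*, which encodes part of the ruler that spaces dynein arms along motile cilia. The genetic background was C56Bl6J in the study's spelling, and mutants carried the allele in every cell. The classes compared below are those of genotype and looping direction. Each library is a bulk of mixed cells, in which fewer cells that express a gene and less RNA per cell cannot be told apart.

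CCN proteins are built of modules shared with insulin-like growth factor binding proteins, von Willebrand factor and thrombospondin, and most of them end in a cystine knot, which CCN5 lacks. They bind integrins, heparan sulfate proteoglycans, LRP receptors and growth factors of the BMP, TGF-beta and VEGF families in the matrix, and so modulate other signals rather than act as classic ligands. *Ccn1* (*Cyr61*) and *Ccn2* (*Ctgf*) are immediate early genes and targets of YAP and TEAD, and *Ccn1* is needed for septation of the heart. *Ccn3* is also called *Nov*, and *Ccn4*, *Ccn5* and *Ccn6* are also called *Wisp1*, *Wisp2* and *Wisp3*, after the WNT1-induced genes that *Ccn4* and *Ccn5* were first described as.

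The genes lie apart in the genome, and positions here are on GRCm39. *Ccn4* (ENSMUSG00000005124) spans chr15:66763060-66795050 on the plus strand, and *Ccn3* lies on the same chromosome at chr15:54609012-54620154. *Ccn2* at chr10:24471333-24474900 and *Ccn6* at chr10:39026966-39041928 share chromosome 10, on opposite strands. *Ccn1* lies at chr3:145352720-145355738 on the minus strand and *Ccn5* at chr2:163662753-163675066 on the plus strand. The locus of *Ccn6* overlaps that of *Tube1*, a tubulin gene on the other strand with 82495 summed counts against 673 of *Ccn6*. *Ccn1*, *Ccn2* and *Ccn4* each overlap a long noncoding RNA gene on the other strand (*Gm17501*, *Gm15270* and *Gm46514*). As the use of strand in the counting is not given in the sources used here, reads of such neighbours cannot be told apart from those of the members, and *Ccn6* is the least certain.

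Promoters of 2 members were found in the RefSeq table of GRCm38.p6, that of *Ccn1* at chr3:145649936-145650235 and that of *Ccn6* at chr10:39163745-39164044, both on the minus strand. They are shown, in windows of 300 bases around the start, as the promoters matched in that table, and belong to the highest member in level and to the fourth. Capitals mark matches on either strand to the TEAD motif CATTCC, the TATA box TATAAA, the CRE core TGACG, the TCF and LEF motif CTTTGA and the SRF CArG box.
Ccn1 promoter: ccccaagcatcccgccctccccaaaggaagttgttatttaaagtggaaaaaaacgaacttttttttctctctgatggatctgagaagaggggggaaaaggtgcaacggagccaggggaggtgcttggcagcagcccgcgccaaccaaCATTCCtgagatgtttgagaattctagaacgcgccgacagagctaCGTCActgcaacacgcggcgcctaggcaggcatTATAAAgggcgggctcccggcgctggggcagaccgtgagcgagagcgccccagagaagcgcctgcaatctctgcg
Ccn6 promoter: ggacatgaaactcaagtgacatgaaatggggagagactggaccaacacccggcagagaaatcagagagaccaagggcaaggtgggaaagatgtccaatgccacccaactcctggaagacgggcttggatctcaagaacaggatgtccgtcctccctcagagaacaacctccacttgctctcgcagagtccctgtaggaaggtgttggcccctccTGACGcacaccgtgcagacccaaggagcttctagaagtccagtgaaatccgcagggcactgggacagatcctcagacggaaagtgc
The *Ccn1* window held 1 TEAD motif, 1 CRE core and 1 TATA box, whose first bases lie 103, 58 and 25 bases before the start. The *Ccn6* window held 1 CRE core, 36 bases before the start. None of these is rare, as 14.6% of the 32544 promoters in the table held the TEAD motif, 20.9% the CRE core and 13.6% the TATA box. The TCF and LEF motif, in 16.0% of promoters, and the CArG box, in 1.64%, had no match in either window. No promoter is shown for *Ccn2*, *Ccn3*, *Ccn4* and *Ccn5*.

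The libraries held 36073684 to 62970327 counts each (median 43458644). *Ccdc40*, the mutated gene, had a mean over both sides of 19.7 to 22.5 CPM (counts scaled to the TMM-adjusted library size) in the wild types, 10.9 to 13.5 in the mutants with rightward looping and 11.2 to 13.6 in those with inverted looping, so that the labelled genotypes did not overlap. Markers of heart field progenitors, the labelled tissue, summed to 514 to 1190 CPM. The libraries also held markers of other tissue, with sums of 359 to 6120 CPM for heart muscle, although the heart tube had been removed at dissection, 27.0 to 301 CPM for neural tube, 30.5 to 298 CPM for paraxial mesoderm and 15.0 to 1512 CPM for yolk sac endoderm.

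*Ccn1* was by far the highest member of the family in the heart field and *Ccn4* came next, while *Ccn3* and *Ccn5* were barely counted. Levels between genes were compared as CPM per kilobase of exon, over the mean of both sides of each embryo. *Ccn1* had 32.5 ± 5.81 CPM per kb (SD, n = 21), *Ccn4* 2.55 ± 0.703, *Ccn2* 0.510 ± 0.122 and *Ccn6* 0.0901 ± 0.0196. *Ccn5* and *Ccn3* had 0.0215 ± 0.0183 and 0.0116 ± 0.00713. The mean of *Ccn1* was 12.7 times that of *Ccn4*, which was 5.01 times that of *Ccn2*, and *Ccn2* was 5.66 times as high as *Ccn6*.

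This order held in each of the 21 embryos from *Ccn1* down to *Ccn5*, while *Ccn5* and *Ccn3* could not be ordered, with *Ccn5* the higher in 13 of 21 embryos. The ranges of *Ccn4* and *Ccn2* overlapped over embryos because of 1 mutant with rightward looping, embryo 2_2, which held 3.80 CPM of *Ccn4* against a median of 16.0 CPM over all embryos. In counts, *Ccn1* had a median of 2864.5 per library, *Ccn4* 684.5, *Ccn2* 70 and *Ccn6* 14.5.

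*Ccn3* had 119 counts over the 42 libraries and was at 0 in 11, and *Ccn5* had 84 and was at 0 in 14. A count of 0 allows up to 3 counts, or 0.0468 to 0.0838 CPM depending on the library, and this limit covers counting error only. No fold change of right over left within a class is given for either gene, because their levels lay at or near this limit on both sides. Differences between classes that the fit of all libraries gave for them are no measure of a change, for the same reason. With so few counts, a left-right difference of *Ccn3* or *Ccn5* was not detectable at this depth.

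**Figure D1:**
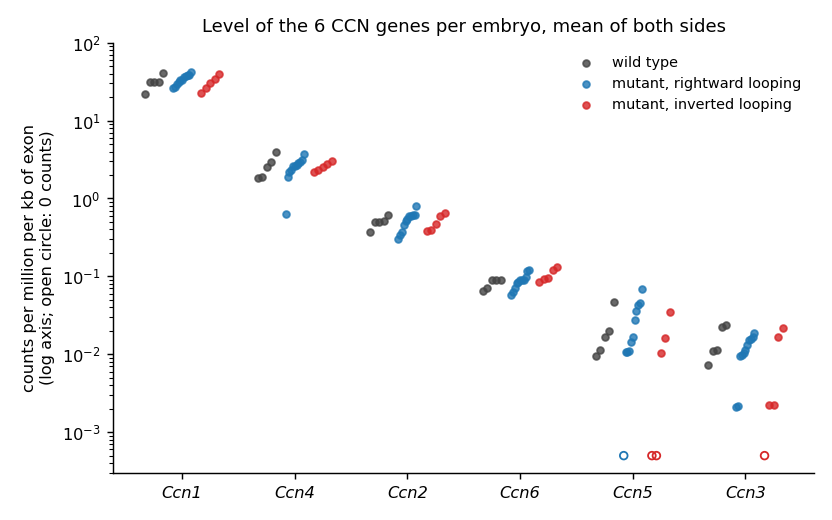
Level of the 6 CCN genes in each embryo, as CPM per kb of exon on a log axis, mean of both sides, with 1 point per embryo coloured by class and sorted by value. *Ccn1* lies above *Ccn4* in each of the 21 embryos, and *Ccn5* and *Ccn3* lie lowest, with 3 and 1 embryos at 0 counts drawn as open circles.

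*Ccn4* was higher on the left in the wild types and on the right in the mutants with inverted looping. In the wild types its left side held 12.6, 16.0, 21.9, 22.6 and 31.5 CPM in embryos 22_4, 7_1, 10_1, 8_1 and 17_7. The right side of the same embryos held 9.80, 7.28, 8.54, 13.0 and 16.9 CPM. The left was the higher side in 5 of 5 embryos, although the ranges of the sides overlapped, since the levels of the embryos differed as well. Left and right means were 20.9 ± 7.24 and 11.1 ± 3.88 CPM (SD, n = 5).

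In the mutants with inverted looping the sides were exchanged. The left side of *Ccn4* held 8.33, 9.19, 10.2, 10.7 and 13.3 CPM in embryos 10_3, 18_2, 32_2, 2_7 and 4_6. The right side of these embryos held 20.1, 27.8, 23.1, 15.7 and 17.3 CPM. The right was higher in 5 of 5 embryos, and the lowest right side lay above the highest left side. Left and right means were 10.3 ± 1.89 and 20.8 ± 4.82 CPM (SD, n = 5).

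In the mutants with rightward looping the log2 ratio of *Ccn4* had an SD of 0.63 over embryos, against 0.51 in the inverted mutants and 0.37 in the wild types. The study placed the rightward mutants in different laterality clusters, so their spread includes any difference between clusters. The left side ranged from 5.62 to 24.4 CPM with a median of 17.7 CPM, and the right side from 1.98 to 20.8 CPM with a median of 13.98 CPM. The left was higher in 8 of 11 embryos, while embryos 15_5, 32_3 and 19_4 had more on the right, with log2 ratios of 0.15, 0.15 and 0.50. The lowest pair of sides was that of embryo 2_2, with 298 and 90 counts. Left and right means were 17.2 ± 5.71 and 13.4 ± 5.33 CPM (SD, n = 11).

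**Figure D2:**
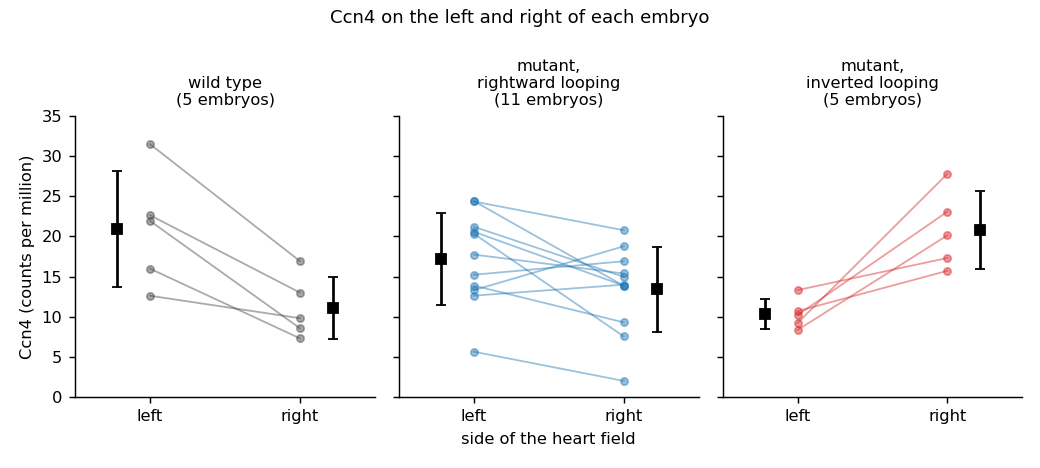
*Ccn4* in CPM on the left and right of each embryo, with a line for each embryo and black squares for the mean ± SD. The lines fall in 5 of 5 wild types, rise in 5 of 5 mutants with inverted looping and fall in 8 of 11 mutants with rightward looping.

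Right over left of each class was tested by edgeR's quasi-likelihood test with the embryo as a block, with p-values adjusted over all genes by the Benjamini-Hochberg method and a threshold of 0.05. The study singled out *Ccn4* in these same libraries, so its tests are not independent evidence. Apart from the libraries, the study mapped *Ccn4* by in situ hybridization in whole mutant embryos. It reported left-predominant, right-predominant and symmetric patterns there. In the mutants with inverted looping *Ccn4* was higher on the right by a log2 fold change of 1.01 (SE 0.18, 95% interval 0.59 to 1.42, adjusted p = 0.0324), or 2.01 times. It was the only one of the 4 members tested that was called there, beside 2.04% of all 22960 genes. This share varied with the setting, as 138 to 446 genes were called without 1 inverted embryo and 53 in males alone, and DESeq2 called 1755. The call of *Ccn4* was lost without embryo 10_3, 18_2 or 32_2, with adjusted p = 0.0718, 0.0857 and 0.147, while the log2 fold change stayed between 0.84 and 1.17. It was also lost in males alone, at a log2 fold change of 1.09 (adjusted p = 0.239).

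In the wild types the log2 fold change of *Ccn4* was -0.92 (SE 0.15, 95% interval -1.26 to -0.58), a factor of 1.89 in favour of the left. Its unadjusted p of 0.000286 had rank 4 of 23182 genes, but the adjusted p was 1.00, and it was not called. No gene was called in this class, which is a share of 0%, with 639 genes at an unadjusted p under 0.05. DESeq2 called 20 genes here, with *Ccn4* among them at an adjusted p of 3.44e-07, so whether *Ccn4* passed in the wild types depended on the tool.

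In the mutants with rightward looping *Ccn4* had a log2 fold change of -0.44 (SE 0.16, 95% interval -0.79 to -0.10, adjusted p = 1.00 by edgeR) and was not called. In this class 6 genes were called, 0.0263% of 22795, all of them higher on the left, and DESeq2, which called 32, did not call *Ccn4* either. An exact two-sided sign-flip test of the log2 ratio over the 11 embryos gave an unadjusted p of 0.0342. It was 1 of 18 such tests of the 6 members in 3 classes, and classes of 5 embryos cannot go below 0.063 in this test.

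The asymmetry of *Ccn4* differed between mutants of opposite looping. The difference of right over left, inverted minus rightward, was 1.44 on the log2 scale (SE 0.27, 95% interval 0.87 to 2.01, adjusted p = 0.0184), in a fit of all 42 libraries by edgeR. *Ccn4* was the only one of 6 members called, beside 0.311% of 26335 genes, with rank 39 by p, and the difference equals a factor of 2.71. Against the wild types, the mutants with inverted looping differed by 1.91 (SE 0.32, 95% interval 1.24 to 2.57, adjusted p = 0.0102), beside 0.513% of genes called. *Ccn4* had rank 11 there, and the factor was 3.75. Both comparisons share the inverted mutants. DESeq2 called 456 and 911 genes in them, and edgeR called 18 to 75 and 17 to 260 when 1 inverted embryo was left out. Exact permutation of the embryos' log2 ratios gave p = 0.000458 and p = 0.00794, unadjusted, among 18 such tests of members.

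The call of inverted against rightward was lost without embryo 10_3, 18_2 or 32_2, with log2 differences of 1.37, 1.29 and 1.39 and adjusted p between 0.0659 and 0.100. In males alone both calls were lost (adjusted p = 0.374 and 0.205), at log2 differences of 1.63 and 2.03. Without the embryo block, log2 differences of 1.37 and 1.92 had adjusted p of 0.344 and 0.171.

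Mutants with rightward looping and wild types were not told apart. The labels do not divide this class, although the study placed its embryos in more than one laterality cluster (situs solitus and heterotaxy), so its mean ratio averages over both kinds. The difference of asymmetry was 0.47 for *Ccn4* (95% interval -0.09 to 1.03, adjusted p = 1.00 by edgeR), an interval that holds both 0 and the size of the left excess of the wild types. Over all 26335 genes 0% were called, with 800 at an unadjusted p under 0.05 and none called by DESeq2. No member reached an unadjusted p of 0.05.

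**Figure D3:**
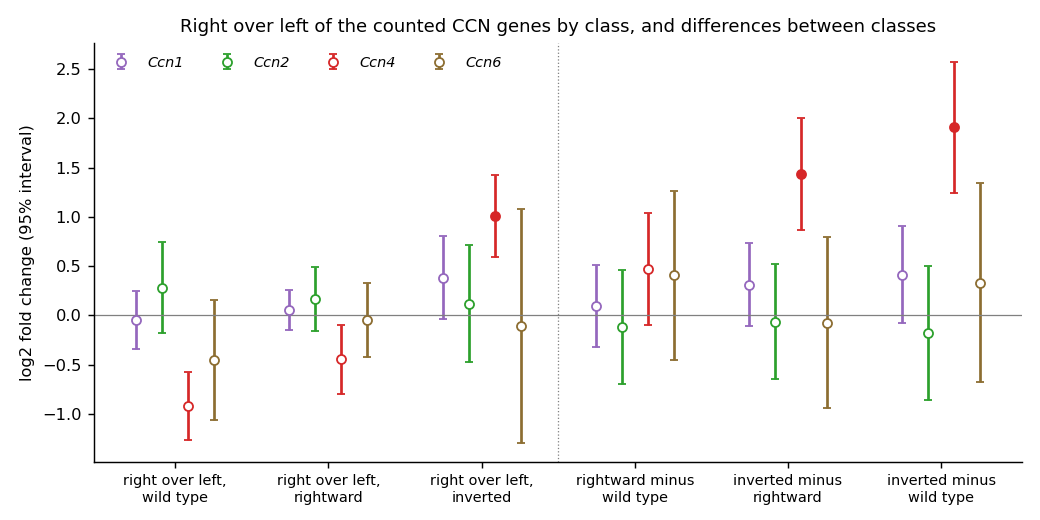
Log2 fold change of right over left in each class (left of the dotted line) and difference of that fold change between classes (right of it) for the 4 members with enough counts, with 95% intervals from edgeR and filled points where the adjusted p passed. The filled points are those of *Ccn4*, at 1.01, 1.44 and 1.91.

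None of the other members passed a test of right over left or of its difference between classes. Exact permutation tests of their log2 ratios between classes gave p-values of 0.0900 to 0.897, unadjusted. *Ccn1* had log2 fold changes of right over left of -0.05 (95% interval -0.34 to 0.24) in the wild types, 0.05 (-0.15 to 0.26) in the mutants with rightward looping and 0.38 (-0.04 to 0.80) in those with inverted looping. In this last class its left side held 34.6, 45.1, 50.04, 67.7 and 72.9 CPM in embryos 18_2, 10_3, 32_2, 4_6 and 2_7, and its right side 90.3, 46.0, 55.2, 71.7 and 87.3 CPM. The right was the higher side in 5 of 5 embryos, but by little in 4 of them, with log2 ratios of 0.03 to 0.26 against 1.38 in embryo 18_2. Without that embryo the log2 fold change of the class was 0.13.

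A right side higher in every inverted embryo was found for 2 of 4 members, *Ccn1* and *Ccn4*, beside 8.02% of all genes, and sides that did not overlap for *Ccn4* alone, beside 1.99%. In the wild types a left side higher in 5 of 5 embryos was found for *Ccn4* and *Ccn6*, beside 2.31% of all genes.

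*Ccn2*, with 35 to 131 counts per library, varied without a common side. Its log2 fold changes were 0.28 (95% interval -0.18 to 0.74) in the wild types, 0.17 (-0.15 to 0.49) in the mutants with rightward looping and 0.12 (-0.48 to 0.71) in those with inverted looping. The right was higher in 4 of 5, 6 of 11 and 3 of 5 embryos. Its level was near 1.6 CPM in each class, with means over both sides of 1.58 ± 0.269, 1.66 ± 0.462 and 1.59 ± 0.376 CPM (SD, n = 5, 11 and 5).

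*Ccn6* was counted 6 to 52 times per library. In the wild types its left side held 0.315, 0.320, 0.394, 0.396 and 0.416 CPM in embryos 8_1, 7_1, 22_4, 10_1 and 17_7, and its right side 0.244, 0.185, 0.312, 0.314 and 0.302 CPM. These sides just failed to overlap, which was so with the left higher for 0.185% of all genes. The counts behind them were 14 to 24 on the left and 9 to 15 on the right. The log2 fold change was -0.46 (95% interval -1.06 to 0.15, adjusted p = 1.00 by edgeR), an interval that includes 0. In the mutants it was -0.05 (-0.42 to 0.32) with rightward looping and -0.11 (-1.29 to 1.08) with inverted looping, where embryo 2_7 had 52 counts on the right against 12 on the left.

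**Figure D4:**
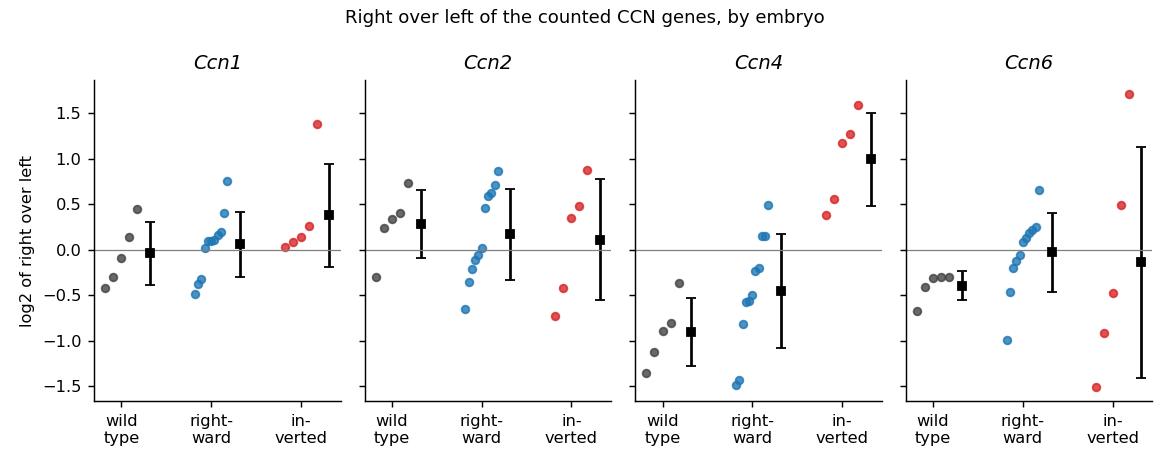
Log2 ratio of right over left in each embryo for *Ccn1*, *Ccn2*, *Ccn4* and *Ccn6*, by class and sorted by value, with black squares for the mean ± SD. *Ccn4* lies below 0 in 5 of 5 wild types and above 0 in 5 of 5 inverted mutants, while the other 3 genes scatter around 0 except for *Ccn6* in the wild types and *Ccn1* in the inverted mutants.

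How far *Ccn4* stood apart was described by its place among all genes tested. By the size of its log2 fold change of right over left it had a percentile of 97.6 in the wild types, 95.7 in the mutants with rightward looping and 96.0 in those with inverted looping. The same percentiles ran from 27.6 to 88.5, from 43.4 to 77.6 and from 40.5 to 78.4 for *Ccn1*, *Ccn2* and *Ccn6*. The spread of the ratio over embryos was set beside that of 11472 genes with a mean of at least 200 counts. In the mutants with rightward looping the SD was 0.63 for *Ccn4*, a percentile of 96.3, and 0.36 for *Ccn1*, a percentile of 86.5, against a median of 0.16. This class mixes laterality clusters of the study, so its spread includes any difference between them. In inverted mutants *Ccn1* had the larger SD, 0.57 against 0.51 of *Ccn4*, with percentiles of 95.3 and 93.8. Wild types had percentiles of 79.2 for *Ccn1* and 81.5 for *Ccn4*.

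The level of *Ccn4* on one side was compared between classes with sex as a covariate, and no member was called by edgeR or DESeq2. On the left, inverted mutants had less *Ccn4* than rightward ones by a log2 fold change of -0.71 (95% interval -1.23 to -0.18, adjusted p = 0.488), beside 0.0121% of 24838 genes called. On the right they had more by 0.67 (0.02 to 1.32, adjusted p = 1.00), beside 0.00805% of 24859. Rightward mutants differed from the wild types by -0.36 (-0.86 to 0.15) on the left, beside 0.0242% of genes called, and by 0.20 (-0.49 to 0.88) on the right, beside 0.0121%. Averaged over both sides, the means of the 3 classes were 16.0 ± 5.32, 15.3 ± 4.83 and 15.6 ± 2.08 CPM (SD, n = 5, 11 and 5).

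*Ccn1* was lower on the left of inverted mutants than on the left of rightward ones by -0.31 (95% interval -0.62 to 0.0039, adjusted p = 0.638 by edgeR), which did not pass.

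The sides of inverted mutants were also compared with the opposite sides of rightward ones. For *Ccn4* the right of inverted mutants was 0.30 above the left of rightward ones on the log2 scale (95% interval -0.21 to 0.81), and the left of inverted mutants was 0.34 below the right of rightward ones (interval of the difference -1.04 to 0.36). Neither was called, and 0% of 24291 and 0% of 24154 genes were, with 1113 and 1628 at an unadjusted p under 0.05 and 3 and 54 called by DESeq2. Intervals of this width do not show that the levels were equal. Of the members, *Ccn1* had an unadjusted p under 0.05 in the second of these comparisons, with a log2 fold change of -0.37 (-0.72 to -0.03, adjusted p = 0.710).

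The ratio of *Ccn4* in mutants with rightward looping was related to that of *Ccn1* by Pearson's r, but not by rank after adjustment. The study placed these mutants in different laterality clusters (situs solitus and heterotaxy), which the labels do not give. Within this class, here and below, a relation among embryos cannot be told apart from a difference between clusters. Over these 11 embryos Pearson's r was 0.79 (permutation p = 0.00372, 0.0223 adjusted over 12 relations) and Spearman's rho 0.67 (permutation p = 0.0274, 0.110 adjusted), with r = 0.63 without the 2 embryos farthest from the median. Of the other 11471 genes with a mean of at least 200 counts, 300 (2.62%) had a higher r with *Ccn4* than *Ccn1* had. With *Ccn2* r was 0.66 (permutation p = 0.0285, 0.0855 adjusted) and rho 0.57 (permutation p = 0.0705, 0.164 adjusted), and r = 0.70 without the 2 farthest. With *Ccn6* r was -0.11 (permutation p = 0.750) and rho -0.15 (permutation p = 0.671).

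No relation of the ratio of *Ccn4* with summed tissue markers passed after adjustment in this class, with adjusted permutation p of 0.0809 to 0.262 for r and 0.110 to 0.299 for rho. The summed heart muscle markers gave r = 0.68 (permutation p = 0.0202, 0.0809 adjusted) and rho = 0.51 (permutation p = 0.114), and r fell to 0.10 without the 2 farthest embryos. Heart field progenitor markers gave r = 0.63 (permutation p = 0.0358) and rho = 0.48 (permutation p = 0.138), with 0.29 without the 2 farthest, and paraxial mesoderm markers r = -0.61 (permutation p = 0.0458) and rho = -0.64 (permutation p = 0.0409), with -0.50. The other sums were those of yolk sac endoderm (r = 0.53, permutation p = 0.0884, rho = 0.69, permutation p = 0.0223, and r = 0.70 without the 2 farthest) and neural tube markers (r = -0.42, permutation p = 0.196, rho = -0.37, permutation p = 0.260, and r = -0.36). The 5 marker relations were chosen after seeing the data.

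In the mutants with inverted looping, heart muscle markers were themselves higher on the right. Of the 10 markers 8 were called by edgeR, beside 2.04% of all genes, with a median log2 fold change of 1.06 against -0.01 over all genes, and the log2 ratio of their sum ran from 0.67 to 1.42 over the 5 embryos. Progenitor markers had 4 of 12 called (*Tbx5*, *Mef2c*, *Osr1* and *Wnt2*), all higher on the right, with a median of 0.26, a lowest value of -0.39 and sums of 0.10 to 0.55. Of the 12 markers 8 had a log2 fold change above 0. Neural tube markers had 3 of 6 called on the left (*Pax6*, *Hes5* and *Olig2*) and sums of -1.84 to -0.45. The markers given by name were picked after their values were seen. No marker of these lists had a median of 3 counts or fewer. In the wild types the heart muscle sum had log2 ratios of -1.65 to 1.04 with 3 of 5 embryos higher on the right, while *Ccn4* was on the left in 5 of 5.

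Markers of yolk sac endoderm had medians on the same side as *Ccn4*. All 8 were lower on the right in the wild types, with a median log2 fold change of -1.24 (-1.51 to -0.88), and in rightward mutants, with -0.29, and all 8 were higher on the right in inverted mutants, with 0.57 (0.30 to 0.87). None of them was called by edgeR in any class. Their sum varied widely between embryos, with log2 ratios of -3.32 to 1.97 in the wild types, where 1 of 5 embryos was higher on the right, and of -1.18 to 4.85 in inverted mutants, where 3 of 5 were. The sum of paraxial mesoderm markers lay opposite to *Ccn4*, higher on the right in 4 of 5 wild types and in 1 of 5 inverted mutants. The part of tissue content in the asymmetry of *Ccn4* was not tested in any class.

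*Ccn1* and *Ccn2* rose and fell together in level over embryos. Over 21 embryos, with levels as the mean log2 CPM of both sides, Pearson's r was 0.80 (permutation p = 2e-05, 0.00024 adjusted) and Spearman's rho 0.86 (permutation p = 1e-05, the smallest that 100000 resamples can give, 0.00012 adjusted). It was 0.80 without the 2 farthest embryos and 0.78 within the 11 mutants with rightward looping. *Ccn1* was the second most like gene of *Ccn2* by this measure among 11472 genes. The embryos share tissue and scaling between both genes, so this is a description of these libraries.

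A relation with the immediate early genes as a group was not detected for either. The summed level of 19 such genes gave r = 0.18 with *Ccn1* (permutation p = 0.448) and rho = 0.29 (permutation p = 0.203), and r = 0.34 with *Ccn2* (permutation p = 0.134) and rho = 0.39 (permutation p = 0.0821). Without the 2 farthest embryos r was 0.31 for *Ccn1* and 0.20 for *Ccn2*, and within the 11 mutants with rightward looping it was 0.15 and 0.53. In the inverted mutants 3 of 17 immediate early genes tested were called, beside 2.04% of all genes, and all were higher on the right, namely *Fos* by 0.95 (SE 0.15, adjusted p = 0.0224 by edgeR), *Zfp36* by 0.52 (SE 0.10, adjusted p = 0.0340) and *Jun* by 0.26 (SE 0.05, adjusted p = 0.0394).

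Genes most like *Ccn4* were sought by the Pearson correlation of the right over left ratio over the 21 embryos, among 11472 genes with a mean of at least 200 counts per library. The 5 nearest were *Tex2* (r = 0.95), *Tmem88* (0.94), *Pmp22* (0.91), *Bmp4* (0.91) and *Me1* (0.91). The points fall in groups by class, and both libraries of an embryo enter each ratio, so these values describe likeness only. By level, the genes nearest to *Ccn4* were *Plagl1* (0.95), *Shisa3* (0.93), *Il1r1* (0.92), *Foxf1* (0.92) and *Gnb4* (0.92). Those nearest to *Ccn1* were *Cited2* (0.81), *Clu* (0.80), *Smim36* (0.78), *Kdelr1* (0.77) and *Edn1* (0.77), and beside *Ccn1* itself those of *Ccn2* were *Pygl* (0.82), *Baiap2* (0.78), *Krt19* (0.77) and *Ost4* (0.77). *Ccn6*, at its low counts, reached 0.69 with its nearest gene, *Armcx3*. Within the 11 mutants with rightward looping the ratios nearest to that of *Ccn4* were those of *Ccdc9* (0.97), *Brpf3* (0.95), *Col4a6* (0.94), *Ripor3* (0.94) and *Pard6b* (0.94). This class mixes laterality clusters of the study, so these values too describe likeness only.

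Of the genes in the count table, 13 start within 500 kb of *Ccn4*. Of the 9 that could be tested for the difference between inverted and rightward mutants, *Tg*, the thyroglobulin gene at chr15:66542602-66722570, was the 1 called, beside 0.311% of all genes, with a log2 difference of 2.18 (SE 0.39, adjusted p = 0.0122 by edgeR). Its right over left was -0.96 in the wild types, -0.92 in rightward mutants and 1.27 in inverted ones, where it just missed the threshold (adjusted p = 0.0557). The log2 differences of the others ran from -0.96 for *Dnaaf11* to 1.56 for *Sla* (adjusted p of 0.562 to 0.999). *Sla*, which lies within the span of *Tg*, had right over left of -0.34, 0.19 and 1.77 in the same classes, *Dnaaf11* 0.71, 0.43 and -0.51, and *Ndrg1*, downstream of *Ccn4*, -0.18, 0.03 and 0.04.

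Partners of the family were described by lists, whose medians stand beside those of all genes tested. Heart muscle markers were higher on the right in inverted mutants, with 8 of 10 called, and 3 of 6 neural tube markers were called on the left. The part of tissue content in the calls of the partner lists was not tested. In inverted mutants 2.04% of all genes were called, 395 of 468 of them higher on the right, while 0% in the wild types and 0.0263% in rightward mutants leave nothing to read from a count of 0 in a list there. Of 15 tested CCN receptors 3 were called in inverted mutants, all higher on the right, namely *Itgb3*, an integrin subunit of platelets and vessels, by 1.33 (SE 0.15, adjusted p = 0.00644 by edgeR), *Igf2r*, which clears IGF2, by 0.56 (SE 0.06, adjusted p = 0.00629) and *Itga6*, a laminin receptor subunit, by 0.41 (SE 0.05, adjusted p = 0.0101). Their median was 0.24 against -0.01 over all genes.

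Growth factors that CCN proteins bind had 4 of 9 called in inverted mutants, beside the same 2.04% of all genes, all higher on the right, with a median of 0.22. They included *Bmp2* with 1.17 (SE 0.12, adjusted p = 0.00564), a ligand of the atrioventricular canal, *Bmp4* with 0.84 (SE 0.13, adjusted p = 0.0198) and *Tgfb2* with 0.54 (SE 0.07, adjusted p = 0.0103). The other was *Bmp7*, named after its values were seen. *Bmp2* was also called for the difference between inverted and rightward mutants, at 1.31 (SE 0.25, adjusted p = 0.0184).

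Of 18 tested other matricellular genes 2 were called in inverted mutants, beside 2.04% of all genes. They were *Thbs4* with 2.00 (SE 0.26, adjusted p = 0.0101) and *Tnc* with 0.52 (SE 0.06, adjusted p = 0.00887). Both were higher on the right, as were 395 of all 468 called genes. *Thbs4* and *Tnc* encode a thrombospondin and tenascin C. The median of this list was 0.06. Among 20 targets of YAP and TEAD 2 were called, beside the same share of all genes. They were *Ankrd1*, a cardiac stress gene, with 1.31 (SE 0.16, adjusted p = 0.00887) and *Tgfb2*, and the median was 0.04. *Ccn1* and *Ccn2*, which belong to the same targets, were not called.

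Feedback targets of WNT, which *Ccn4* is often listed with, had calls on both sides in inverted mutants, but 15 of 19 were not called. Over all genes 2.04% were called. Of 19 tested, 1 was called on the right, the BMP and TGF-beta pseudoreceptor *Bambi* with 0.64 (SE 0.08, adjusted p = 0.00759). On the left 3 were called, with *Sp8* at -1.87 (SE 0.32, adjusted p = 0.0279), a transcription factor of the neural plate and limb ridge, and *Nkd2* at -0.57 (SE 0.11, adjusted p = 0.0448), a Dishevelled antagonist. The other was *Axin2*, a negative regulator of WNT signalling, named after its values were seen. The median was -0.01, beside -0.01 over all genes. In the wild types and rightward mutants the medians were 0.01 and -0.01.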

How the data were processed

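Polyadenylated RNA of the left and right heart field of 21 mouse embryos was sequenced by the authors from low-input libraries as paired reads. Per the study's methods and the submitters' processing notes, reads were trimmed, duplicates were removed with Picard, and reads were aligned with STAR to GRCm39 and counted per gene with featureCounts of Subread 2.0.6. The deposited values are raw read counts per gene, not normalised. Whether strand was used, and how reads shared by overlapping genes were counted, is not given in the sources used here.

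From the deposited counts, right over left was tested within each class, and its difference between classes over all 42 libraries, by edgeR 4.0.16 (R 4.3.3) with TMM scaling, the quasi-likelihood test and the embryo as a block. One side was compared between classes with sex as a covariate. Genes were kept by filterByExpr (minimum count 5, total count 10, proportion 0.2), and p-values were adjusted over all genes tested. *Ccn3* and *Ccn5* passed this filter in the fit of 42 libraries and in no fit of one class or one side. SE is the log2 fold change divided by the root of F, and intervals are 95%. Ratios per embryo used log2 CPM with a prior count of 2. Exact tests and permutation tests were two-sided, with 100000 resamples for relations over 11 or 21 embryos. Alternatives were DESeq2 1.42.0, library size alone, no filter or at least 10 counts in every library, males alone, no embryo block, no covariate, 1 fit of all libraries, a prior count of 0.5, and each embryo left out.

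Both sides come from the same embryo per the labels, which is the source of the pairing. Over the 2000 genes checked, deviations of the sides of an embryo correlated from -0.11 to 0.79 with a median of 0.45, and 8 of 21 left libraries were closest to their own right library. No pair of libraries agreed within sampling noise. The study's own laterality clusters were not used, as the labels do not give them and they were formed from expression in these same libraries. Members, lists and tests were chosen with earlier results of these data known. Named genes were the members, up to 3 called genes with the largest change of each list, the 5 genes most like a member, genes starting within 500 kb of *Ccn4* and *Ccdc40*. Outside this rule, the other called growth factor and WNT feedback gene and the called progenitor and neural tube markers were named after their values were seen. A check gene of the same rule is not reported here, nor is its relation with *Ccn4*, which was 1 of the 12 relations adjusted together. The embryos of a class are separate animals.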

Additional observations from a re-analysis of the deposited data

Results flagged for a closer look

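The log2 ratio of right over left of *Ccn1* in embryo 18_2 was 1.38, far from the other 4 mutants with inverted looping, of which the nearest had 0.26. The gap was 0.827 of the range of the class, against a critical value of 0.71 in Dixon's test. It was the only one of 24 groups of embryos to pass, and chance passes about 1 in 20. *Ccn4* had its highest ratio of the class, 1.59, in the same embryo. The asymmetry of *Ccn4* differed between mutants with inverted and rightward looping by 1.44 and between mutants with inverted looping and wild types by 1.91 on the log2 scale, both by the interaction term of edgeR with adjusted p = 0.0184 and adjusted p = 0.0102.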

How the results depend on the processing

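Of 273 recounts of the members called under another setting, 261 gave the same count, 11 a lower one and 1 a higher one. Most of the recounts were of comparisons with no member called at first. A lower count was possible only where a member had been called, so the total says little about how stable those calls were. DESeq2 called 1 member in the wild types, *Ccn4*, where edgeR called 0. Males alone gave 0 members for right over left in mutants with inverted looping and for both differences of asymmetry with them, where all embryos gave 1. Without the replicate block these differences also had 0 members called, while right over left of *Ccn4* in inverted mutants was still called. Leaving out 1 embryo gave 0 to 1 members for right over left in inverted mutants and for inverted against rightward looping, with 0 without embryo 10_3, 18_2 or 32_2. *Ccn4* kept its direction in each test of sides under all alternatives run.

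Values of uncalled members changed sign, and the cause was not tested. In right over left, leaving out 1 embryo gave -0.17 to 0.0515 for *Ccn1* in wild types, -0.00989 to 0.12 for *Ccn1* and -0.11 to 0.0576 for *Ccn6* in rightward mutants, and -0.0871 to 0.32 for *Ccn2* and -0.65 to 0.26 for *Ccn6* in inverted mutants. The means over embryos ranged likewise from -0.16 to 0.0528, -0.0109 to 0.11, -0.0980 to 0.0668, -0.0789 to 0.32 and -0.602 to 0.20. In the difference of rightward mutants and wild types the ranges were -0.27 to 0.0132 for *Ccn2*, -0.77 to 0.40 for *Ccn3* and -1.04 to 0.36 for *Ccn5*. In that of inverted and rightward mutants they were -0.25 to 0.14 for *Ccn2* and -0.61 to 0.28 for *Ccn6*, and in that of inverted mutants and wild types -0.36 to 0.0394 and -0.20 to 0.70. On the left, rightward mutants against wild types ranged from -0.0265 to 0.0806 for *Ccn1*, -0.0471 to 0.20 for *Ccn2* and -0.0371 to 0.12 for *Ccn6*, and inverted against rightward mutants from -0.24 to 0.0583 for *Ccn2*. On the right, the former ranged from -0.0270 to 0.28 for *Ccn1* and -0.0783 to 0.20 for *Ccn2*, and the latter from -0.12 to 0.12 for *Ccn1*, -0.20 to 0.0337 for *Ccn2* and -0.19 to 0.42 for *Ccn6*. The right of inverted against the left of rightward mutants ranged from -0.0581 to 0.18 for *Ccn1*, -0.0441 to 0.22 for *Ccn2* and -0.27 to 0.39 for *Ccn6*.

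In males alone the sign changed for right over left of *Ccn1* in wild types (0.0185), for rightward mutants minus wild types of *Ccn1* (-0.0101), *Ccn2* (0.17) and *Ccn3* (0.0142), for inverted minus rightward of *Ccn2* (0.25), for inverted minus wild types of *Ccn2* (0.42) and *Ccn6* (-0.22), and for *Ccn6* on the left of rightward mutants against wild types (-0.00482), on the right of inverted against rightward mutants (-0.20) and on the right of inverted against the left of rightward mutants (-0.37). Without the replicate block *Ccn1* in wild types was 0.00498 and *Ccn6* in inverted minus rightward 0.0112. Without the covariate *Ccn6* on the left of rightward mutants against wild types was -0.0629 and *Ccn1* on the right of inverted against rightward mutants -0.00417. Library size alone in place of TMM moved the median log2 value of all genes by at most 0.0268. The fitted values of *Ccn3* and *Ccn5* come from levels at or near the limit of detection and measure no change. Counts of *Ccn3*, *Ccn5* and *Ccn6* limit what could be seen of them.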
